A study of Mus musculus with 8 samples.

Results

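Peroxisomes are single-membrane organelles that import their enzymes from the cytosol, shorten very long and branched fatty acids, and start the synthesis of ether lipids. Peroxins, the products of the Pex genes, build the membrane and bring in the enzymes. Myelin is rich in plasmalogens, ether phospholipids whose first steps are peroxisomal, and mice whose oligodendrocytes lack functional peroxisomes develop demyelination and brain inflammation. The 31 genes described here are 11 peroxins, 9 genes of fatty acid import and beta-oxidation, 2 of alpha-oxidation, 4 of plasmalogen synthesis and 5 other peroxisomal genes. The rule that picks their clusters uses gene names and no difference between the groups. The genes themselves were chosen with earlier results of these data known. Each of the 31 had exactly 1 transcript cluster, the array's unit for a gene, that the platform annotation assigns to that gene alone, among 23410 clusters tested.

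The tissue was corpus callosum, the white matter tract between the hemispheres, taken by hand after perfusion from wild-type male C57BL/6 mice labelled as 8 weeks old. Control mice (n = 4) ate normal diet, and cuprizone mice (n = 4) received food with 0.25% cuprizone, a copper chelator toxic to oligodendrocytes, for 1 week. Each biological replicate gave 1 Affymetrix Mouse Gene 1.0 ST array, which reads whole-tissue RNA without sorting of cells. Whether a replicate was 1 mouse or a pool is not given in the sources used here. Array medians lay between 7.44 and 7.49 on the log2 scale. Mature oligodendrocyte markers were called lower in 16 of 16 genes, led by Mog (log2 fold change -3.78 ± 0.18, SE) and Mag (-3.20 ± 0.19), both proteins of the myelin surface. In whole tissue, fewer cells of a type and less RNA per cell cannot be told apart. Microglial markers were called higher in 9 of 11 genes, led by the complement genes C1qb and C1qc, and astrocyte markers in both directions (4 higher, 2 lower of 10), with Gfap at 0.96 and Slc1a2 at -0.60. None of 10 neuronal markers passed in limma (1 at an unadjusted p under 0.05). None of 7 endothelial markers passed (3 at an unadjusted p under 0.05), but all 7 values were negative, with a median of -0.14. The endothelial mean, relative to the control mean, was -0.04 to 0.02 on control arrays and -0.17 to -0.08 on cuprizone arrays. Of 9 choroid plexus and ependyma markers 1 passed, Rarres2 at -0.34. Their mean, relative to the control mean, was -0.32, 0.30, -0.57 and 0.60 on control arrays 1 to 4 and -0.61, 0.28, -0.41 and 0.10 on cuprizone arrays 1 to 4, so arrays 1 and 3 were low and 2 and 4 high in both groups.

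None of the 31 peroxisomal genes passed the threshold, a limma adjusted p under 0.05 over all clusters tested, while 8.22% of all clusters did (3.52% lower and 4.71% higher). At an unadjusted p under 0.05 limma gave 3 of the 31, Pxmp4, Far2 and Slc25a17, against 20.8% of all clusters, and an ordinary F test without moderation also called 0 after adjustment. The arrays of the groups did not overlap for 1 of the 31, Far2, and for 15.3% of all clusters (7.09% with cuprizone lower). None both passed and reached 1.5-fold, against 2.31% of all clusters. The log2 fold changes ran from -0.21 for Pxmp4 to 0.23 for Slc25a17, with a median of -0.0588, against -0.00742 over all clusters. Of the 31 values 21 were negative, as were 12304 of all clusters (52.6%). With arrays centred on their medians 23 of the 31 were negative, and over the alternative settings with all 31 genes the number ranged from 19 to 23.

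These values bound how large a change in the deposited whole-tissue log2 levels can have been at this precision. Signal over background is unknown, which limits this for dim genes such as Pxmp2 and Ehhadh. The 95% interval of every one of the 31 genes, unadjusted for their number, lay inside a 1.5-fold change in either direction, and so did 94.8% of all clusters. For 30 of the 31 it lay inside 1.3-fold, against 84.1% of all clusters, and for 21 inside 1.2-fold, against 58.2%. The gene outside 1.3-fold was Slc25a17, with an interval of 0.03 to 0.44 on the log2 scale. Standard errors of the 31 had a median of 0.0659, against 0.071 over all clusters. At these errors a difference of 0.194 to 0.333 on the log2 scale, 1.14-fold to 1.26-fold depending on the gene, would have passed the threshold. A missed threshold does not show that the levels were equal.

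**Figure D1:**
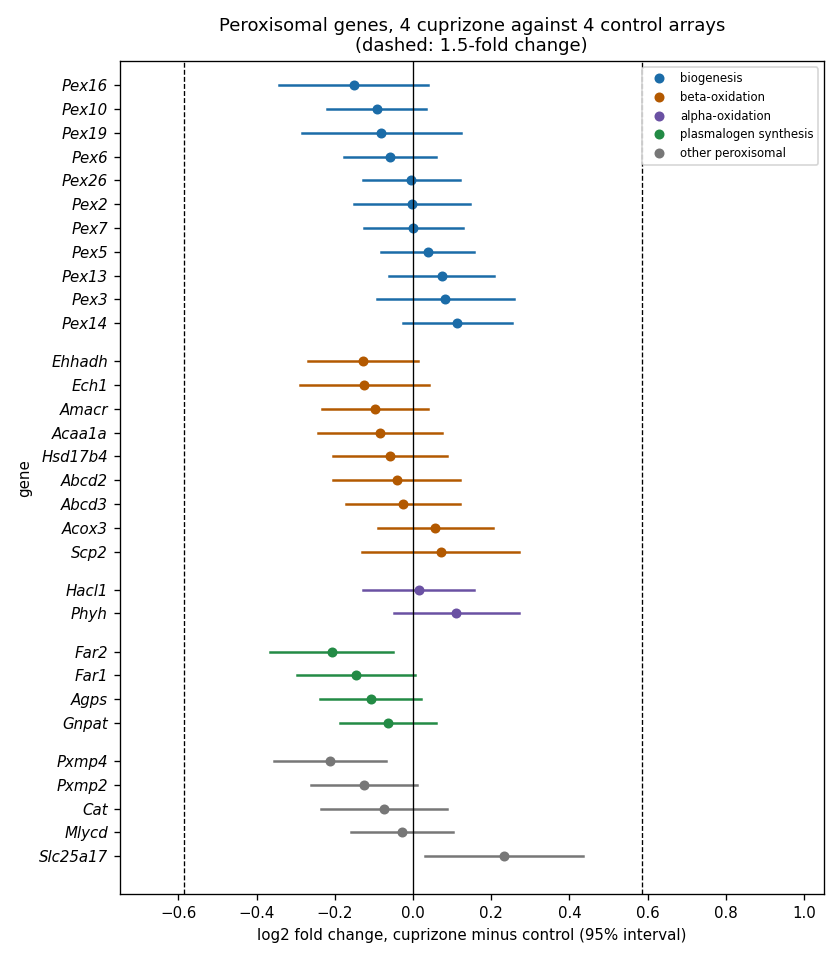
Log2 fold change, cuprizone minus control, of each of the 31 peroxisomal genes (points) with its unadjusted 95% interval (lines), grouped and coloured by role. All 31 intervals lie between the dashed lines at a 1.5-fold change, and those of Pxmp4, Far2 and Slc25a17 do not reach 0.

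The promoters of the 3 genes with an unadjusted p under 0.05 are shown with that of Far1, which encodes the second enzyme of the kind that Far2 encodes. Each window is read 5′ to 3′ along the gene from 250 bases before to 50 after a transcript start, from RefSeq (GRCm38.p6). Capitals mark matches, on either strand, to the GC box (GGGCGG) and the CCAAT box (CCAAT).
Pxmp4, chr2:154603624-154603923, minus strand: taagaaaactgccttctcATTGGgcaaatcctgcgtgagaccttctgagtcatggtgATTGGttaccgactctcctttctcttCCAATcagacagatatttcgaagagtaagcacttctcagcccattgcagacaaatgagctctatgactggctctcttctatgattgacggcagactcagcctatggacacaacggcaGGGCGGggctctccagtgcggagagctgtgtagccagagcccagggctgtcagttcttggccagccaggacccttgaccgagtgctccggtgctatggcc
Far2, chr6:148047166-148047465, plus strand: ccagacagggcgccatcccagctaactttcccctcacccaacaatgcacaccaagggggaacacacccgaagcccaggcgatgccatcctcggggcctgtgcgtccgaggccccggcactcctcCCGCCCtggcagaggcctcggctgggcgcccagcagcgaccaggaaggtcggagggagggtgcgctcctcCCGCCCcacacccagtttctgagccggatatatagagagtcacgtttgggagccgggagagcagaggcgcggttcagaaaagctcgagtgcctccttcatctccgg
Far1, chr7:113513584-113513883, plus strand: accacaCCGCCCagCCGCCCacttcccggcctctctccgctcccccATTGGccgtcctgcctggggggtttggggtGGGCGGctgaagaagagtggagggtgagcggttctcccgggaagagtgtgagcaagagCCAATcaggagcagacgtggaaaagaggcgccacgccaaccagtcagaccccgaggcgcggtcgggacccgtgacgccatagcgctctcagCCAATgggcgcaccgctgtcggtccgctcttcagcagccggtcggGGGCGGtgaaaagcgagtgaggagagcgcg
Slc25a17, chr15:81360716-81361015, minus strand: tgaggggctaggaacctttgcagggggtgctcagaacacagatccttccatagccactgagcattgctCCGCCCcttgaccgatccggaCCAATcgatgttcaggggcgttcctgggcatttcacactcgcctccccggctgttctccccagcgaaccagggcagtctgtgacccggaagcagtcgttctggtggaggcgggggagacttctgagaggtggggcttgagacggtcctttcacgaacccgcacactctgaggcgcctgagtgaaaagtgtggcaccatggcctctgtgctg

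All 4 windows held a GC box, and the CCAAT box was in those of Pxmp4, Far1 and Slc25a17 but not of Far2. Windows were found for 25 of the 31 genes, the first listed where a gene had several. A GC box was in 19 of the 25 (76.0%), against 46.3% of the windows of 17491 protein-coding genes. The CCAAT box was in 11 (44.0%, against 39.0%), and the TATA box (TATAAA) in 3 (against 13.3%). Half-sites of the PPAR receptors (AGGTCA), which drive many peroxisomal genes in liver, were in 3, those of Cat, Phyh and Scp2 (against 14.5%). The SOX core (ACAAAG) was in 2 (8.0%, against 16.7%) and the E-box CACGTG in 1 (4.0%, against 7.9%). Bases were G or C in a median of 59.3% of a window, against 56.3% for protein-coding genes, and CG pairs numbered 17 at the median, against 13. These matches are letters in a window and show no binding.

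Plasmalogen synthesis had a median of -0.13, the lowest of the 5 role groups except without cuprizone replicate 2, where it was -0.115 and that of the remaining peroxisomal genes -0.123. All 4 of its values were negative. They stayed so on leaving out arrays, on rescaling, with array weights and with the choroid plexus covariate. The remaining ones of the 21 alternative settings changed the model, the test or the clusters and could not move these values. None of the 4 passed. The oligodendrocyte marker mean lay between -2.50 and -1.76 on the same cuprizone arrays and the microglial mean between 0.46 and 0.84. The endothelial mean lay between -0.17 and -0.08 there, and the part of these cell types in these values was not tested. Far2, which like Far1 reduces fatty acyl-CoA to the fatty alcohol used for the ether bond, stood at 9.39, 9.46, 9.58 and 9.39 on control arrays 1 to 4. Its cuprizone arrays read 9.08, 9.31, 9.32 and 9.28, all below the lowest control. The log2 fold change was -0.21 ± 0.07 (limma adjusted p = 0.112, and no lower than 0.0590 in any alternative). Far1 read 9.60, 9.54, 9.63 and 9.76 in controls and 9.50, 9.41, 9.41 and 9.62 with cuprizone. Cuprizone replicate 4 lay among the controls, and the change was -0.15 ± 0.07 (adjusted p = 0.255). Far1 and Far2 differed in their changes by 0.06 ± 0.11, within the spread of the arrays (exact two-sided permutation test, p = 0.600).

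Gnpat encodes the acyltransferase that starts ether lipid synthesis in the peroxisome. It stood at 8.75, 8.71, 8.71 and 8.70 in controls and at 8.55, 8.68, 8.74 and 8.65 with cuprizone, so that cuprizone replicate 3 lay inside the control range. The change was -0.06 ± 0.06 (adjusted p = 0.588). Agps, whose enzyme then exchanges the acyl chain for the fatty alcohol, read 7.94, 7.73, 7.79 and 7.83 in controls. With cuprizone it read 7.70, 7.71, 7.68 and 7.76, where replicate 4 overlapped the controls, and the change was -0.11 ± 0.06 (adjusted p = 0.334). The changes of Gnpat and Agps differed by 0.04 ± 0.06 (exact two-sided permutation test, p = 0.486).

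**Figure D2:**
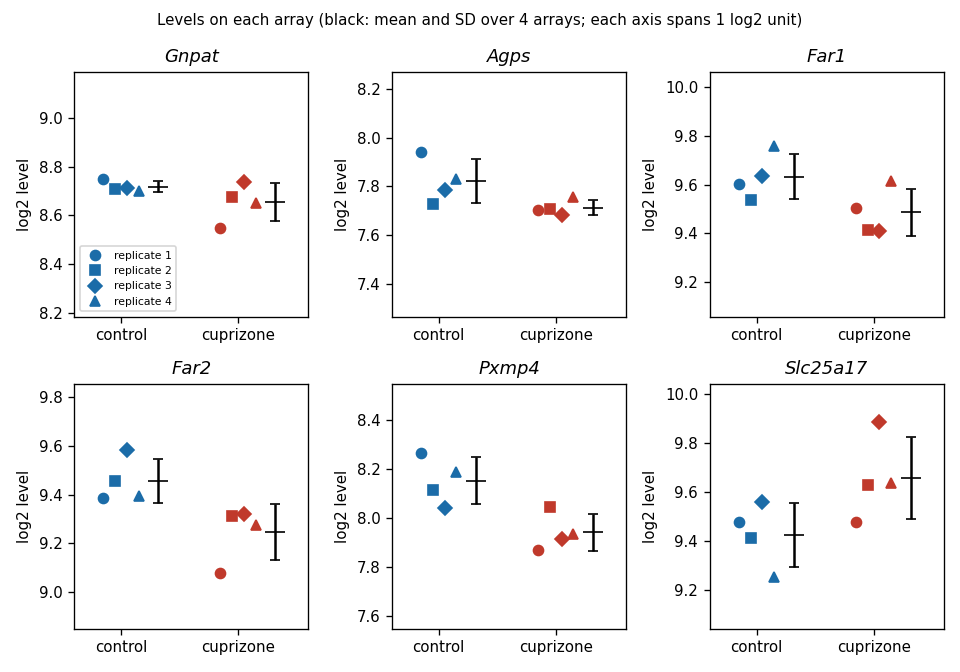
Log2 level on each array for the 4 plasmalogen synthesis genes, Pxmp4 and Slc25a17; blue is control, red is cuprizone, the symbol gives the replicate number, and black marks the mean and SD over 4 arrays. Far2 is the gene whose 2 groups do not overlap, with all cuprizone arrays between 9.08 and 9.32.

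Later steps of ether lipid synthesis and turnover, outside the peroxisome, were set beside these genes. Of 15 measured genes on that list 3 were called lower (20%, against 3.52% of all clusters) and 1 higher (26.7% called in all, against 8.22%). The list was chosen with earlier results of these data known, so these shares are a description and not a test. Pcyt2, which makes the CDP-ethanolamine for ethanolamine phospholipids, fell by 0.48 on the log2 scale (SE 0.07, limma adjusted p = 0.00114). Tmem189, which encodes the desaturase that forms the vinyl ether bond of plasmalogens, fell by 0.44 (SE 0.07, adjusted p = 0.00360). Both passed in every alternative setting except the test against a 1.2-fold change. Agmo, whose enzyme cleaves alkyl ether lipids, fell by 0.31 (SE 0.08, adjusted p = 0.0374). Its adjusted p was 0.0628 to 0.0879 without control replicate 2, 3 or 4 or cuprizone replicate 1, 2 or 4. The call of Agmo was also lost by the ordinary F test (adjusted p = 0.117), without both arrays numbered 2 and against a 1.2-fold change. Lpcat2, an acyltransferase that makes platelet-activating factor, rose by 0.37 (SE 0.08, adjusted p = 0.0121). It passed in all alternatives but the ordinary F test (adjusted p = 0.0639) and the 1.2-fold test. The median of the list was -0.07, and the part of the cell type markers in it was not tested.

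**Figure D3:**
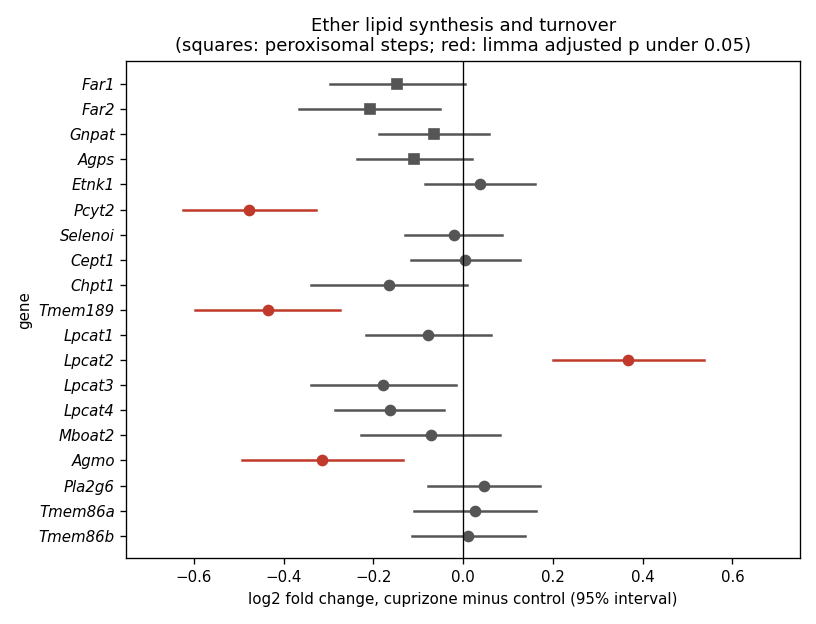
Log2 fold change, cuprizone minus control, with 95% interval for the 4 peroxisomal steps of ether lipid synthesis (squares) and 15 later or turnover genes (circles), red where the limma adjusted p was under 0.05. Pcyt2, Tmem189 and Agmo lie below 0 and Lpcat2 above it, and the 4 squares are grey.

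The biogenesis genes had 6 negative and 5 positive values and a median of -0.00223, with no call. The signs of Pex2, Pex7 and Pex26 turned under some alternatives. The median had no settled sign: it ran from -0.0240 to 0.0175 over the alternatives, with 4 to 7 values negative, and was positive without control replicate 1 (0.0175), 2 (0.00641) or 3 (0.00381). Pex5 and Pex7, the receptors that carry enzymes to the peroxisome, had changes of 0.04 ± 0.05 and 0.000781 ± 0.06. Pex5 stood at 7.92, 7.90, 7.77 and 7.89 in controls and at 7.91, 7.89, 7.94 and 7.89 with cuprizone. Pex7 read 8.30, 8.24, 8.28 and 8.19 in controls and 8.28, 8.20, 8.35 and 8.19 with cuprizone, and the groups overlapped for both receptors. Of the docking proteins of the membrane, Pex14 had the smallest p of the group. It stood at 8.20, 8.30, 8.19 and 8.23 in controls and at 8.34, 8.38, 8.46 and 8.21 with cuprizone, a change of 0.11 ± 0.06 (limma adjusted p = 0.359). Cuprizone replicate 4 lay among the controls. Its partner Pex13 had a change of 0.07 ± 0.06.

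The assembly factors that insert membrane proteins had changes of -0.15 ± 0.09 (Pex16), -0.08 ± 0.09 (Pex19) and 0.08 ± 0.08 (Pex3). Pex16 had the widest of the biogenesis intervals but that of Pex19, from -0.34 to 0.04. The ubiquitin ligase subunits Pex2 and Pex10, which act in recycling of the receptors, had -0.00223 ± 0.07 and -0.09 ± 0.06. Pex6, an ATPase that pulls the receptors out of the membrane, had -0.06 ± 0.05, and Pex26, its membrane anchor, -0.00392 ± 0.06. The adjusted p of these 11 genes ran from 0.359 to 0.997.

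Beta-oxidation genes had 7 negative and 2 positive values and a median of -0.0590, with no call, and the signs of Abcd2 and Abcd3 turned when single arrays were left out. Without cuprizone replicate 1 the median was -0.0239. Abcd2 and Abcd3, half-transporters that bring fatty acyl-CoA into the peroxisome, had changes of -0.04 ± 0.07 and -0.02 ± 0.07. Abcd2 read 9.32, 9.52, 9.38 and 9.33 in controls and 9.48, 9.40, 9.31 and 9.19 with cuprizone, and Abcd3 9.20, 8.94, 8.96 and 9.04 against 8.95, 9.07, 9.03 and 8.99. The groups overlapped in both, and cuprizone replicate 4 held the lowest Abcd2 level of the 8 arrays. Acox3, a peroxisomal acyl-CoA oxidase, had 0.06 ± 0.07, and Amacr, the racemase of branched substrates, -0.10 ± 0.06.

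The multifunctional enzymes that hydrate and dehydrogenate the chain are encoded by Hsd17b4 and Ehhadh. Ehhadh had the smallest p of the beta-oxidation genes (change -0.13 ± 0.06, limma adjusted p = 0.294). It stood at 6.84, 6.87, 6.72 and 6.68 in controls and at 6.75, 6.59, 6.66 and 6.61 with cuprizone, where replicate 1 alone lay inside the control range. Hsd17b4 read 8.86, 8.77, 8.87 and 8.74 in controls and 8.62, 8.86, 8.82 and 8.71 with cuprizone, a change of -0.06 ± 0.07. Among the thiolases, which cut the chain, Scp2 read 7.65, 7.31, 7.34 and 7.24 in controls and 7.41, 7.43, 7.38 and 7.61 with cuprizone. Acaa1a read 7.70, 7.64, 7.75 and 7.59 in controls and 7.40, 7.59, 7.65 and 7.70 with cuprizone. The groups overlapped for both thiolases, at changes of 0.07 ± 0.09 and -0.08 ± 0.07. Ech1, a dienoyl-CoA isomerase, had -0.12 ± 0.07.

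Alpha-oxidation removes 1 carbon from branched or hydroxylated chains. Phyh, the phytanoyl-CoA hydroxylase, read 9.76, 9.57, 9.73 and 9.64 in controls and 9.68, 9.85, 9.92 and 9.68 with cuprizone. Replicates 2 and 3 of cuprizone lay above all controls, and the change was 0.11 ± 0.07 (limma adjusted p = 0.445). Hacl1, the lyase of the next step, read 7.58, 7.38, 7.54 and 7.53 in controls and 7.40, 7.57, 7.59 and 7.53 with cuprizone, a change of 0.01 ± 0.06 whose sign turned under quantile normalization and centring.

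The remaining genes held both ends of the range. Pxmp4, a protein of the peroxisomal membrane, read 8.27, 8.12, 8.04 and 8.19 in controls and 7.87, 8.05, 7.92 and 7.94 with cuprizone. Cuprizone replicate 2 lay just above control replicate 3, and the other cuprizone arrays lay below all controls. The change was -0.21 ± 0.07 (limma adjusted p = 0.0761). Pxmp4 passed with quantile normalization repeated (0.0496), with arrays centred on their medians (0.0477) and among the brighter 50% of clusters (0.0364). It passed in no other of 21 settings. Pxmp2, a channel of the same membrane, read 6.22, 6.08, 6.06 and 6.05 in controls and 6.07, 5.97, 5.96 and 5.90 with cuprizone, a change of -0.12 ± 0.06 (adjusted p = 0.284).

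Slc25a17, the carrier of coenzyme A and related cofactors, stood at 9.48, 9.41, 9.56 and 9.25 in controls and at 9.48, 9.63, 9.89 and 9.64 with cuprizone. Cuprizone replicate 1 lay inside the control range and the other 3 above it. The change was 0.23 ± 0.09 (limma adjusted p = 0.170, and no lower than 0.0985 in any alternative). Cat, the catalase that removes hydrogen peroxide, had -0.07 ± 0.07 (adjusted p = 0.647), and Mlycd, the malonyl-CoA decarboxylase, -0.03 ± 0.06.

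Related genes were compared in 8 pairs by their difference within each array. The adjusted p over the 8 pairs was 0.686 to 0.886 (exact two-sided permutation tests). The smallest p of 1 pair that 4 against 4 arrays allow is 0.0286, which becomes 0.229 after adjustment unless other pairs are as low, and 5 pairs at that minimum would be needed to pass. The adjusted values therefore could hardly have passed. The widest difference was that of Scp2 over Acaa1a, 0.15 ± 0.10 (exact p = 0.171), followed by Phyh over Hacl1, 0.10 ± 0.04 (exact p = 0.114). Pxmp2 and Pxmp4 differed by 0.09 ± 0.07, Hsd17b4 and Ehhadh by 0.07 ± 0.10, Pex5 and Pex7 by 0.04 ± 0.05, and Abcd2 and Abcd3 by -0.02 ± 0.12.

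Some single arrays held the lowest or the highest level for several of the 31 genes. The mean of the 31, relative to the control mean, was 0.05, -0.02, 0.01 and -0.05 on control arrays 1 to 4 and -0.09, -0.02, 0.02 and -0.05 on cuprizone arrays 1 to 4, so the groups overlapped. Cuprizone replicate 1 held the lowest of the 8 levels for 10 of the 31 genes (32.3%) and for 13.3% of all clusters. Control replicate 1 held the highest for 10 (32.3%, against 13.6%), and cuprizone replicate 3 the highest for 8 (25.8%, against 15.9%). Cuprizone replicate 1 also stood lowest on the oligodendrocyte marker mean, at -2.50, where the remaining cuprizone arrays had -1.76 to -2.18. Its part in the peroxisomal values was not tested beyond leaving it out, which moved the median of the 31 from -0.0588 to -0.0239. The mean of the 4 plasmalogen genes was -0.20, -0.13, -0.12 and -0.08 on cuprizone arrays 1 to 4 and -0.05 to 0.02 on control arrays. The means of the remaining role groups overlapped. Such a gap was not particular to plasmalogen genes. The endothelial mean was -0.04 to 0.02 on control and -0.17 to -0.08 on cuprizone arrays. That of the later ether lipid genes was -0.02 to 0.03 and -0.14 to -0.03.

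**Figure D4:**
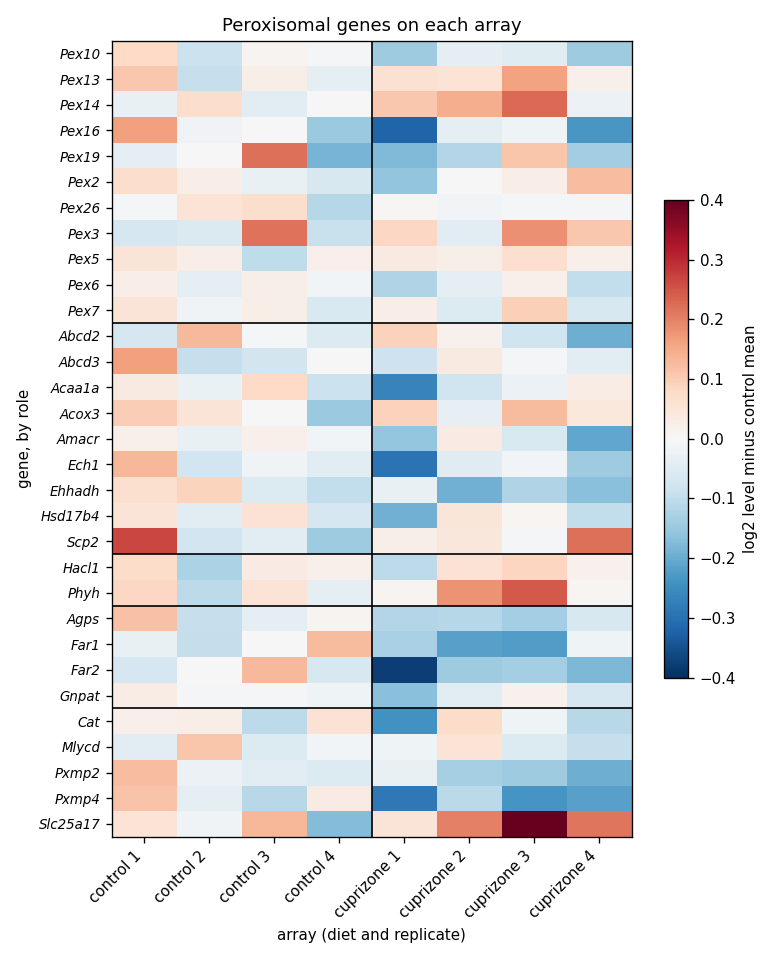
Log2 level of each of the 31 peroxisomal genes (rows, by role) on each of the 8 arrays (columns), minus the gene's control mean, on a colour scale from -0.4 to 0.4 that shows larger values in its darkest colour. The column of cuprizone replicate 1 holds the lowest level of the row for 10 genes, and the 4 plasmalogen synthesis rows are mostly blue on the cuprizone side.

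A further list of peroxisomal and related genes, 50 measured and without the 31, had a median of 0.01. Of these, 3 were called higher and 1 lower (8% called, near the 8.22% of all clusters). The list also holds genes not confined to the peroxisome, among them Pex5l, Abcd4, Mpv17, Fis1, Mff and Dnm1l. Idh1, the NADP isocitrate dehydrogenase of cytosol and peroxisome, fell by 0.52 (SE 0.11, limma adjusted p = 0.0133). Its call was lost with the replicate block (0.0540), by the ordinary F test (0.0905) and against a 1.2-fold change (0.597). Acot6, an acyl-CoA thioesterase, rose by 0.36 (SE 0.06, adjusted p = 0.00374). Ddo, D-aspartate oxidase, rose by 0.37 (SE 0.09, adjusted p = 0.0363). Its adjusted p was 0.0582 to 0.102 without control replicate 2, 3 or 4 or cuprizone replicate 2, 3 or 4. By the ordinary F test it was 0.1315. Pex11a, which acts in peroxisome division, rose by 0.21 (SE 0.06, adjusted p = 0.0480), and its adjusted p was 0.0592 to 0.123 without any 1 array but cuprizone replicate 1. The call of Pex11a was lost in 16 of the 21 alternatives, among them the ordinary F test (adjusted p = 0.05855). With arrays centred on their medians the list had 4 lower and 2 higher. Leaving out 1 array gave 1 to 3 lower and 1 to 4 higher, with 3 lower without cuprizone replicate 2 and 1 higher without control replicate 2, 3 or 4 or cuprizone replicate 2, 3 or 4.

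Mitochondrial beta-oxidation was taken as the neighbouring pathway. Of 19 measured genes 2 were called higher and 0 lower (10.5% called, near the 8.22% of all clusters), 13 values were negative, and the median was -0.03. In 8 of the 21 alternatives 1 gene was called lower, among them centring, repeated quantile normalization and leaving out cuprizone replicate 2 or 3. Hadh, a hydroxyacyl-CoA dehydrogenase named here after its value was seen, had -0.34 ± 0.09 (limma adjusted p = 0.0523). Its groups did not overlap, as for 4 of the 19 genes and 15.3% of all clusters. Acadl, the long-chain acyl-CoA dehydrogenase, rose by 0.47 (SE 0.09, limma adjusted p = 0.00584, and 0.0549 by the ordinary F test). Hadha, a subunit of the trifunctional protein, rose by 0.27 (SE 0.06, adjusted p = 0.0253), with an adjusted p of 0.05095 to 0.0763 without any 1 array but cuprizone replicate 1. The ordinary F test gave Hadha an adjusted p of 0.0641. On a list of PPAR receptors, partners and coactivators with a further nuclear receptor, Nr1h3, none of 9 measured genes passed in limma, against 8.22% of all clusters. Of these 9 genes 1 had an unadjusted p under 0.05, against 20.8% of all clusters, and an ordinary F test called 0. Rxra had the smallest p at 0.16 ± 0.06 (adjusted p = 0.133), followed by Rxrg at -0.32 ± 0.17 (adjusted p = 0.311).

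**Figure D5:**
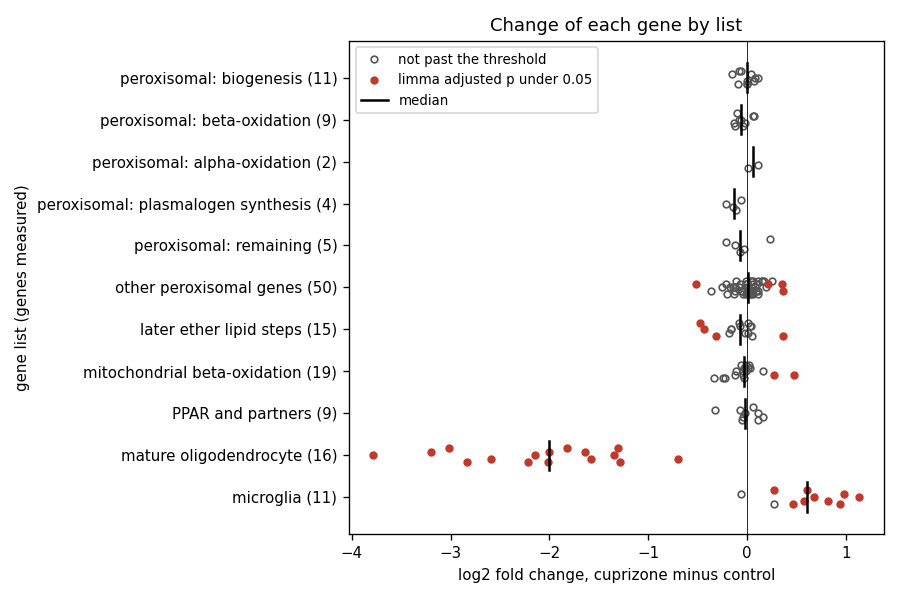
Log2 fold change, cuprizone minus control, of each gene by list; filled red points passed a limma adjusted p under 0.05, open points did not, and black bars are medians. The 5 groups of peroxisomal genes lie between -0.21 and 0.23 with no red point, and the 16 mature oligodendrocyte markers lie between -3.78 and -0.70.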

How the data were processed

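RNA (150 ng per sample) of 4 control and 4 cuprizone samples was hybridised to Affymetrix Mouse Gene 1.0 ST arrays. The deposited values are log2 levels. RMA, Affymetrix Expression Console and Transcriptome Analysis Console are named in the submitters' processing notes, with no version. RMA normally makes array distributions alike, which hides a global shift and shrinks large folds. Scanner files were not used here, and no batch could be tested.

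Clusters with a gene symbol (23410 of 28944) were tested without a filter on dim ones. Of the 31 genes 6 lay below the median brightness. Limma 3.58.1 (R 4.3.3) compared the groups two-sided, without covariates, with Benjamini-Hochberg adjustment over all clusters tested. Adjusted p-values are limma's unless another test is named. Errors after ± are SEs. Pairs were tested by exact permutation over 70 assignments. The fit was tested on simulated data. The number of arrays limits the precision. The p-values set a difference against the spread between these samples, which may be single mice or pools.

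The genes, lists and pairs were chosen with earlier results of these data known. Named are all 31 genes, up to 6 genes of smallest p past the threshold per pathway list (2 where none passed) and the 2 largest called changes per marker list. List genes lacking a cluster of their own were not analysed here. Alternatives were a replicate block, leaving out each array, other variance models, scalings, filters, cluster sets, array weights and a 1.2-fold test. Leaving out both arrays numbered 2, a choroid plexus covariate and the interval counts were added after seeing the data.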

Additional observations from a re-analysis of the deposited data

Results flagged for a closer look

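Of 100 groups of 4 arrays checked, 2 held an array far from the other 3 (by Dixon's 95% critical value), and chance gives about 1 in 20. Pex3 had a level of 9.02 on control replicate 3 and of 8.71 to 8.74 on the remaining 3, a gap of 0.897 of the range. Rxra stood at 7.90 on cuprizone replicate 4, against 7.75 to 7.76 on the other cuprizone arrays, a gap of 0.899 of the range. The change of Pex3 was 0.08, and 0.15 without control replicate 3.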

How the results depend on the processing

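No peroxisomal gene of the 31 was called higher in any of 21 alternative settings. Pxmp4 was called lower with quantile normalization again (1 lower), with arrays centred on their median (1 lower) and among clusters above the median (1 lower), and 30 of the 31 passed in none. All 31 intervals lay inside 1.5-fold in every setting but the median filter, where 25 of 25 genes left did. Over all clusters 632 were called higher by the ordinary F test, and 198 lower and 231 higher against a 1.2-fold change. With the replicate block 0 of the 31 were called, with 636 clusters lower and 892 higher, and Pex11a (adjusted p = 0.106), Ddo (0.0740), Idh1 (0.0540) and Hadha (0.0552) lost their calls. The labels do not say that a number marks a shared batch. The deviations of same-numbered arrays correlated at -0.186, -0.0246, 0.21 and -0.0646, and number 3 alone matched its own number best, so the arrays were not treated as pairs.

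Signs changed for 7 values, none of them past the threshold. Pex7 was -0.00837 with quantile normalization, -0.0205 with centring and -0.0160 with the choroid plexus covariate. Hacl1 was -0.00660 with quantile normalization, -0.00716 with centring and -0.0427 without both arrays numbered 2. Pex2 was 0.00665 and Pex26 0.0158 without both arrays numbered 2, and Pex2 was 0.00453 with the covariate. Leaving out 1 array at a time, Pex2 ranged from -0.0446 to 0.0498, Pex7 from -0.0306 to 0.0228, Pex26 from -0.0421 to 0.0192, Abcd2 from -0.0854 to 0.00989, Abcd3 from -0.0552 to 0.0296, Hacl1 from -0.0280 to 0.0535 and Mlycd from -0.0546 to 0.00953. The planned use of another cluster for a gene had no value to give, since each of the 31 had 1 cluster. Signal over background, which would limit dim genes, is unknown.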
